A study of Mus musculus with 4 samples.

Results

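The 7 genes described here code for the parts with which a mouse cell presents peptides on MHC class I: the heavy chains H2-K1 and H2-D1, the light chain B2m, the peptide transporter subunits Tap1 and Tap2, the loading factor tapasin (Tapbp) and the transcriptional activator Nlrc5. They were listed by name, as 7 of the 55418 rows of a table of gene counts, by a rule that uses no measured value, though with earlier results of these data known. All 7 were among the 18444 genes that passed the filter on low counts and were tested. RNA-seq had been done on mouse embryonic stem cells (ESCs) of the line E14, an established line whose strain is given in the labels as 12910la. WT replicates 1 and 2 are cultures of wild-type genotype, and Pim3-/- replicates 1 and 2 are knockout clones, 1 library each, so that n = 2 per group. Pim3, a serine/threonine kinase gene, had been disrupted with CRISPR/Cas9 and a pair of sgRNAs aimed at separate exons. All 4 libraries shared the medium with serum and LIF on gelatin, and the labels name no interferon treatment. The sources do not say which clone carries which replicate number. Because each knockout library is 1 clone, a difference between the genotypes and a difference between clones and parental cultures cannot be told apart.

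Class I molecules carry peptides from the cytosol to the cell surface, where cytotoxic T cells inspect them and natural killer cells sense their absence. The proteasome cuts the peptides, the TAP transporter moves them into the endoplasmic reticulum, and tapasin holds an empty heavy chain with its light chain next to TAP until a peptide is bound. NLRC5 is recruited to the SXY elements of class I promoters, and interferon raises most genes of the pathway. ESCs are known for a low level of class I at the surface.

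The gene table held 22029427 to 25668307 counts per library. CPM are counts per 1000000 counts of a library after scaling with TMM factors, which ranged from 0.828 to 0.883 in WT and from 1.168 to 1.172 in Pim3-/- libraries. With these factors all tested genes had a median log2 fold change of 0.07, and scaling by library totals alone would add 0.45. Log2 CPM across genes had a correlation of 0.990 within WT and of 0.968 within Pim3-/-. A count of 3, the most that a count of 0 allows, is 0.112 to 0.157 CPM, and such limits cover counting error only. Pim3 had 4392 and 4953 counts in WT and 4970 and 4804 counts in the libraries labelled Pim3-/- (log2 fold change -0.27, adjusted p = 0.251, edgeR), so gene counts do not test the labels and each direction below is between libraries as labelled. For the clones themselves the study reported deleted and inserted bases at the target sites by sequencing, and loss of PIM3 protein by western blot. It also measured Pim3 RNA by qPCR, which it took to show that fragments of Pim3 were deleted. All 10 ESC markers on a list of pluripotency genes were tested and had a summed level of 6811 to 10634 CPM. Of 10 leukocyte markers Ptprc and Adgre1, and of 10 fibroblast markers Lum and Prrx1, had 0 counts in every library, while others on these lists were expressed, such as Laptm5 with 661 to 1820 counts and Thy1 with 400 to 508.

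The promoters of H2-K1, H2-D1, B2m and Tap1 are shown because these are the genes on which the comparison turns, and because the heavy chain promoters are much alike. They run from 250 bases before to 50 bases after the RefSeq start (GRCm38.p6), 5′ to 3′ on the strand of the gene, at chr17:34000298-34000597 (minus strand) for H2-K1, chr17:35262844-35263143 (plus) for H2-D1, chr2:122147437-122147736 (plus) for B2m and chr17:34187306-34187605 (plus) for Tap1. Capitals mark matches, on either strand, to the letters of 6 motifs given in the next paragraph.
H2-K1: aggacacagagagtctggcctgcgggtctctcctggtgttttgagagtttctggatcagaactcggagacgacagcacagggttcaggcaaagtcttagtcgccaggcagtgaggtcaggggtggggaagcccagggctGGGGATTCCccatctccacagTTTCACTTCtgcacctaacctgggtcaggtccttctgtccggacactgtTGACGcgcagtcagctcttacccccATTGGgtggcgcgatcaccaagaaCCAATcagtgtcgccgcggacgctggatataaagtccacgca
H2-D1: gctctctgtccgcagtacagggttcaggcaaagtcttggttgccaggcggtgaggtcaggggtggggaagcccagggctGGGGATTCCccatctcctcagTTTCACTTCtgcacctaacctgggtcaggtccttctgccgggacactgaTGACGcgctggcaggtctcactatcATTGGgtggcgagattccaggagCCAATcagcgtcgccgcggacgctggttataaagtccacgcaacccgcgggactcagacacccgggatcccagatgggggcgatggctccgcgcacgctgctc
B2m: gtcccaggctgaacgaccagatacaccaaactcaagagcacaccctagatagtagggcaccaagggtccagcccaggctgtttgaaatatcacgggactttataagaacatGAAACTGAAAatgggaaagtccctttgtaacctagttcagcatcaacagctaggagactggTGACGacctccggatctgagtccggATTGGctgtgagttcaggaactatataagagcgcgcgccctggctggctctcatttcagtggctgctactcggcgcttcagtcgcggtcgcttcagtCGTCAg
Tap1: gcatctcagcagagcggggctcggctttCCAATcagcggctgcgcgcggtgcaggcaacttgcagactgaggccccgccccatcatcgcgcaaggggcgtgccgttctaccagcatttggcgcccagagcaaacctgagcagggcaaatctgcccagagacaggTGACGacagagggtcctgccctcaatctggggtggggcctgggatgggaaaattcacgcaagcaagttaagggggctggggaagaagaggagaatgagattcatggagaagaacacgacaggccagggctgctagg

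RefSeq promoters were found for 5 of the 7 genes, and the motifs were searched on both strands in these and in all 32817 promoter windows. GGGNNTTCC, a kappaB element, is in 5.82% of all windows, the core of an interferon-stimulated response element (ISRE), GAAA and again GAAA after 2 free bases, in 3.43%, and TTCNNNGAA, a gamma-activated site, in 8.29%. TGACG, the core of the X2 box, is in 20.8%, and CCAAT, the core of the Y box, in 37.4%. GAANTGAAA, the interferon response letters of class I promoters, was added after the promoters had been read and is in 1.83%. The windows of H2-K1 and H2-D1 held the same matches in the same order, namely the kappaB element, the class I interferon letters on the other strand, the X2 core, the Y core on the other strand and the Y core. From first letter to first letter the distances were 21, 49 and 25 bases in both, and the last was 24 bases in H2-K1 and 23 in H2-D1. The pair aligned over 228 columns with 206 identical bases (90.4%). B2m held the ISRE core GAAACTGAAA, then the X2 core and, 25 bases on, a Y core on the other strand, which is the X2 to Y spacing of the heavy chains, and another X2 core near the end of the window. Tap1 held a Y core and an X2 core 136 bases apart, and the Tapbp window held 2 Y cores. No match overlapped another, and a match is a description of letters and not of a site in use.

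Pim3-/- libraries had more RNA of the heavy chains H2-K1 and H2-D1 and of the transporter subunit Tap1 than WT libraries, by 2.36-fold to 3.11-fold. The light chain B2m and tapasin had fitted changes below 0 that missed the threshold, and Tap2 and Nlrc5 had fitted changes above 0 that missed it. In bulk RNA a higher level per cell and more cells with the RNA cannot be told apart. By the quasi-likelihood test of edgeR, at a Benjamini-Hochberg adjusted p below 0.05, 3 of the 7 genes were called higher, beside 17.6% of all tested genes (33.8% in either direction). None was called lower, beside 16.2% of all tested genes, and that count was also 0 at an unadjusted p below 0.05 and 0 with the Wald test of DESeq2. The median log2 fold change of the 7 genes was 1.24, beside 0.07 for all tested genes. The groups did not overlap in CPM for 5 genes higher in Pim3-/- (background 38.3%) and for 1 gene lower, B2m (background 34.2%).

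**Figure D1:**
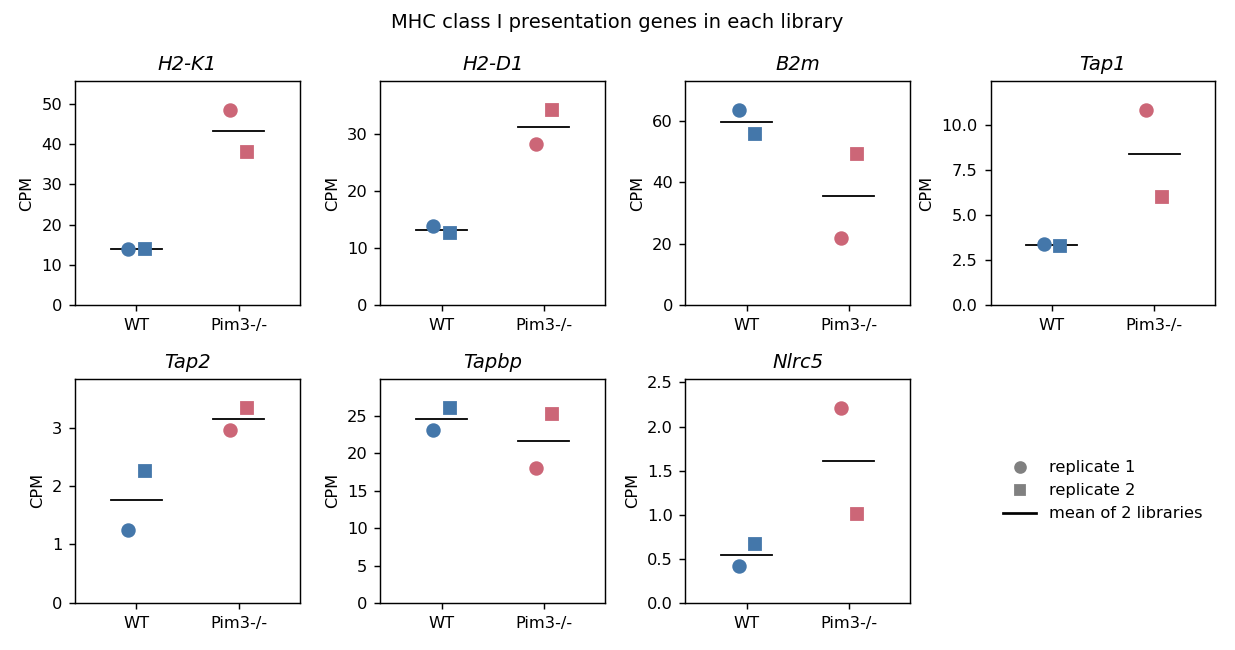
Each panel plots the CPM (vertical axis, from 0) of 1 gene in the 2 WT and 2 Pim3-/- libraries, with circles for replicate 1, squares for replicate 2 and a line at the mean of 2 libraries. H2-K1, H2-D1, Tap1, Tap2 and Nlrc5 lie higher in both Pim3-/- libraries, B2m lies lower, and in Tapbp the groups overlap.

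H2-K1 and H2-D1 code for the classical heavy chains, which hold the peptide and are recognised by T cells. H2-K1 lies on the minus strand of chromosome 17 at 33996017 to 34000347 (GRCm38), near the centromeric end of the MHC. It had 265 and 316 counts in WT replicates 1 and 2 and 1290 and 981 counts in Pim3-/- replicates 1 and 2. Scaled, that is 13.8 and 14.0 CPM against 48.3 and 38.1 CPM. Both Pim3-/- libraries were far above both WT libraries, which were almost equal. The log2 fold change was 1.64 (SE, the standard error, 0.19, 95% interval 1.19 to 2.08, adjusted p = 0.0036), from means of 13.9 CPM ± 0.0829 (SD, n = 2) and 43.2 CPM ± 7.27 (SD, n = 2).

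H2-D1 lies further along, on the plus strand of chromosome 17 at 35262730 to 35267499. It had 264 and 284 counts in WT against 752 and 878 in Pim3-/- libraries, or 13.8 and 12.5 CPM against 28.2 and 34.1 CPM. The groups were again well apart, and here Pim3-/- replicate 2 was the higher of its pair. This is a log2 fold change of 1.24 (SE 0.19, 95% interval 0.79 to 1.69, adjusted p = 0.0056), from 13.2 CPM ± 0.879 (SD, n = 2) to 31.1 CPM ± 4.16 (SD, n = 2). Of the windows of 100 bases in H2-K1 transcripts 0.957% also occur in transcripts of other genes, and in H2-D1 3.59%. For windows of 50 bases the shares were 9.63% and 12.8%, with other heavy chain genes as the leading partners. How multi-mapped reads were counted is not given in the sources used here.

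The genes H2-K1 and H2-D1 can be set against each other within a library, where scaling has no part. Of their joint counts H2-K1 took 50.1% (95% Wilson interval 45.8% to 54.3%) in WT replicate 1 and 52.7% (48.7% to 56.6%) in WT replicate 2. In Pim3-/- replicate 2 the share was 52.8% (50.5% to 55.0%), within the WT intervals. In Pim3-/- replicate 1 it was 63.2% (61.1% to 65.2%), above all others. These intervals cover counting error only, and with 1 library per clone the difference between the Pim3-/- libraries has no replicate check.

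B2m codes for the light chain that every class I heavy chain needs to fold and leave the endoplasmic reticulum. Its gene is outside the MHC, on the plus strand of chromosome 2 at 122147686 to 122153083. It had 1213 and 1259 counts in WT against 586 and 1270 in Pim3-/- libraries, or 63.3 and 55.6 CPM against 21.96 and 49.3 CPM. Pim3-/- replicate 1 had the lowest level by far, and Pim3-/- replicate 2 lay just below the WT libraries. The fitted log2 fold change was -0.74 (SE 0.34, 95% interval -1.52 to 0.04, adjusted p = 0.124), from 59.5 CPM ± 5.47 (SD, n = 2) to 35.6 CPM ± 19.3 (SD, n = 2), so the difference did not pass the test at this spread. Without Pim3-/- replicate 1 it was -0.27, and without Pim3-/- replicate 2 it was -1.44.

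Heavy chain and light chain thus had fitted changes of opposite sign, and their ratio within a library shows the same values without scaling. In counts per kb of merged exons, the log2 ratio of H2-K1 plus H2-D1 to B2m was -2.87 and -2.75 in WT and 0.10 and -1.13 in Pim3-/- libraries. On the linear scale the heavy chains were at 0.137 and 0.149 of the light chain in WT, and at 1.07 and 0.457 in Pim3-/- libraries. Both Pim3-/- libraries lay above both WT libraries, and Pim3-/- replicate 1 was the highest, with its high H2-K1 and low B2m. The mean log2 ratio differed by 2.30, which is 4.91-fold. Exact permutation of the group labels gave a two-sided p = 0.333, the smallest that 2 against 2 allows. With any 1 library left out the difference was 1.68 to 2.91.

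**Figure D2:**
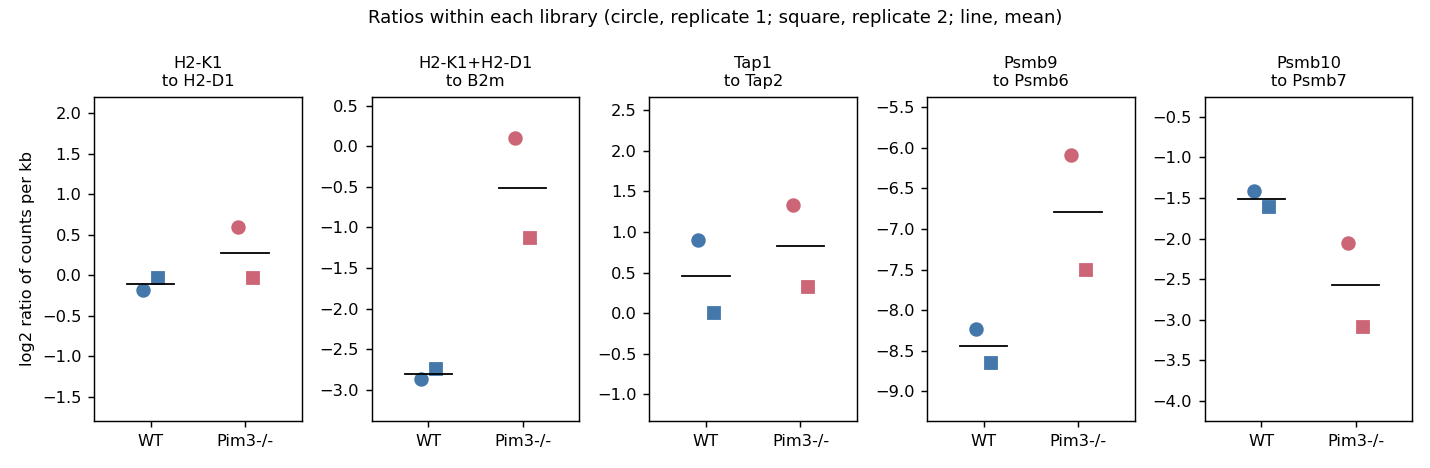
Each panel plots the log2 ratio of counts per kb of exons (vertical axis, own range in each panel) of the named genes within each of 2 WT and 2 Pim3-/- libraries, with a line at the mean. The ratio of H2-K1 plus H2-D1 to B2m is higher in both Pim3-/- libraries (0.10 and -1.13) than in WT (-2.87 and -2.75), while Tap1 to Tap2 overlaps between the groups.

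Tap1 and Tap2 code for the subunits of the TAP transporter, which work only as a pair. Tap1 (plus strand of chromosome 17, 34187553 to 34197225) had 65 and 74 counts in WT against 289 and 155 in Pim3-/- libraries, or 3.39 and 3.27 CPM against 10.8 and 6.01 CPM. Pim3-/- replicate 1 was 1.80 times as high as replicate 2, yet both lay above WT. Fitted across the libraries, the log2 fold change was 1.34 (SE 0.34, 95% interval 0.54 to 2.14, adjusted p = 0.0230). Tap1 shares 212 exon bases with Psmb9 on the other strand, and whether the counting used strand is not given in the sources used here.

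Tap2 (plus strand of chromosome 17, 34203527 to 34216321) had 24 and 51 counts in WT against 79 and 86 in Pim3-/- libraries, or 1.25 and 2.25 CPM against 2.96 and 3.34 CPM. The groups did not overlap, but the gap between WT replicate 2 and Pim3-/- replicate 1 was smaller than the gap between the WT libraries. The log2 fold change of Tap2 was 0.83 (SE 0.40, 95% interval -0.09 to 1.76, adjusted p = 0.137), and of the alternatives tried it passed the threshold with library totals and without Pim3-/- replicate 1. The log2 ratio of Tap1 to Tap2 per kb was 0.90 and 0.00 in WT and 1.34 and 0.32 in Pim3-/- libraries, so the balance of the subunits overlapped between the groups. Of the exon bases of Tap2, 533 are shared with Gm15821 on the other strand.

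Tapbp codes for tapasin, which bridges TAP and the empty class I molecule and favours tightly bound peptides. Its gene lies on the plus strand of chromosome 17 at 33915899 to 33929292. It had 443 and 590 counts in WT against 480 and 652 in Pim3-/- libraries, or 23.1 and 26.1 CPM against 18.0 and 25.3 CPM. Pim3-/- replicate 2 lay between the WT libraries and replicate 1 lay below them. For Tapbp the log2 fold change was -0.19 (SE 0.22, 95% interval -0.69 to 0.32, adjusted p = 0.529), and its sign turned, to 0.26, with library totals and, to 0.0388, without Pim3-/- replicate 1. An antisense gene, Gm19412, covers 24.9% of the exon bases of Tapbp and had 105 to 139 counts per library.

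Nlrc5 codes for an activator known to be recruited to the promoters of class I genes, B2m and Tap1. It is on the plus strand of chromosome 8 at 94434356 to 94527272. It had 8 and 15 counts in WT against 59 and 26 in Pim3-/- libraries, or 0.418 and 0.662 CPM against 2.21 and 1.01 CPM. All 4 libraries were above the level of 3 counts, and both Pim3-/- libraries lay above WT, with replicate 1 at 2.19 times replicate 2. Its log2 fold change was 1.56 (SE 0.56, 95% interval 0.25 to 2.86) and missed the threshold at an adjusted p of 0.0659. At so few counts the depth limits what can be seen. Nlrc5 passed with library totals (log2 fold change 2.00, adjusted p = 0.0226) and without Pim3-/- replicate 2 (2.00), whereas without Pim3-/- replicate 1 it was at 0.88 (adjusted p = 0.213).

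The calls of H2-K1, H2-D1 and Tap1 held with 6 other choices of scaling, filter, test or block, and not when a WT library was left out. Without WT replicate 1 the adjusted p was 0.0751 for H2-K1, 0.0932 for H2-D1 and 0.174 for Tap1, and without WT replicate 2 it was 0.0534, 0.0816 and 0.162. In these fits 25 and 90 of all genes were called higher. The fold changes moved little: H2-K1 was at 1.65 and 1.63 on the log2 scale, H2-D1 at 1.34 and 1.16, and Tap1 at 1.38 and 1.29. Without Pim3-/- replicate 1 the values of H2-K1, H2-D1 and Tap1 were 1.45, 1.37 and 0.85, and without Pim3-/- replicate 2 they were 1.80, 1.10 and 1.70. The Pim3-/- replicates differed most in Tap1, Nlrc5 and B2m, where the log2 of replicate 1 over replicate 2 was 0.85, 1.13 and -1.17.

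Levels of different genes were compared as CPM per kb of merged exons. In WT the light chain B2m was highest at 69.2 ± 6.36 (SD, n = 2), followed by Tapbp at 6.78 ± 0.570, H2-D1 at 5.10 ± 0.341 and H2-K1 at 4.73 ± 0.0282. The heavy chains differed from each other by about their spread, and their order turned when the length of the longest transcript was used. Tap1 at 0.608 ± 0.0163 and Tap2 at 0.464 ± 0.187 did not differ beyond their spread, and Nlrc5 was lowest at 0.0636 ± 0.0204. Among all tested genes in WT, 94.1% were below B2m on this scale, 59.0% below H2-D1, 57.6% below H2-K1, 22.4% below Tap1 and 3.82% below Nlrc5. The light chain of WT ESCs was therefore an abundant RNA, the heavy chains were of middling level, and the transporter was scarce.

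In Pim3-/- libraries the order was B2m at 41.4 ± 22.5 CPM per kb (SD, n = 2), H2-K1 at 14.7 ± 2.47, H2-D1 at 12.1 ± 1.61, Tapbp at 5.96 ± 1.42, Tap1 at 1.54 ± 0.622, Tap2 at 0.833 ± 0.0703 and Nlrc5 at 0.190 ± 0.100. Both heavy chains now stood above Tapbp, which they did not in WT. H2-K1 and H2-D1 were apart by about their spread, as in WT. Pim3-/- replicate 1 brought B2m, at 25.5 CPM per kb, close to H2-K1 at 16.5.

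**Figure D3:**
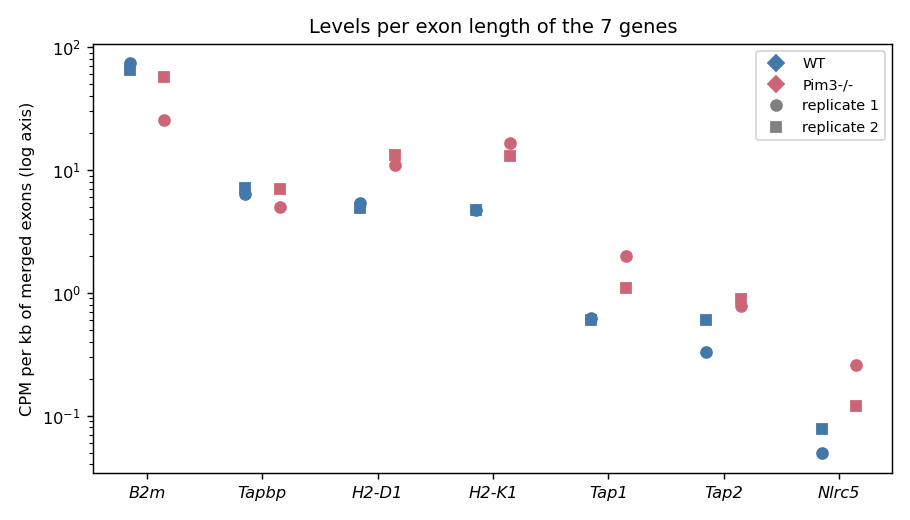
The plot gives CPM per kb of merged exons (log axis) for the 7 genes, ordered by their WT level, with circles for replicate 1 and squares for replicate 2. B2m is at the top in both groups, H2-K1 and H2-D1 stand below Tapbp in WT and above it in Pim3-/- libraries, and Nlrc5 is lowest.

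For each gene the tested genes with the nearest profile were sought, as the smallest distance between log2 CPM over the 4 libraries after each profile was centred on its mean. Nearest to H2-K1 were Bag2 and Gm45494, to H2-D1 Gm44700 and Mpp3, to Tap1 Ccdc88b and Prr19, and to Nlrc5 Ubtfl1 and Gm24451. Nearest to B2m were Platr14, with 941, 1038, 469 and 1009 counts in the order WT 1, WT 2, Pim3-/- 1 and Pim3-/- 2, and 2310031A07Rik. Nearest to Tap2 were Gm11973 and Sox30, and to Tapbp Gm37637 and Malt1. No gene of the 7 was among the 2 nearest of another. Among the 7, the nearest pair was Tap1 and Nlrc5, at a distance of 0.485, then H2-K1 and Tap1 at 0.507 and H2-K1 and H2-D1 at 0.594, while B2m was at least 1.98 from each gene but Tapbp. With 4 libraries between 12 and 493 genes lay within 0.25 of a given gene, so such nearness is common.

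The wider class I pathway was described with lists written from general knowledge, whose counts of calls are to be read against the 17.6% of all tested genes called higher and the 16.2% called lower. Of the 80 tested genes on these lists 12 were called higher and 17 lower, but without WT replicate 1 these were 1 and 1, and without WT replicate 2 they were 1 and 4.

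Further heavy chain genes, most of them non-classical, were 23, of which 15 were tested, and 5 (33.3%) were called higher and 3 (20.0%, near the background) lower, with a median log2 fold change of 1.29. Without either WT library none was called in either direction. H2-Q7, of the Qa region, had 21 and 19 counts in WT against 325 and 161 in Pim3-/- libraries (log2 fold change 3.25, SE 0.43, adjusted p = 0.0042). H2-Q6 had 5 and 4 counts against 39 and 41 (2.79), H2-Q10 had 18 and 18 against 101 and 124 (2.31), H2-Q4 had 99 and 107 against 272 and 433 (1.45), and H2-Bl had 48 and 54 against 330 and 118 (1.79, but 0.90 without Pim3-/- replicate 1 and 2.34 without replicate 2). Of the same family H2-Q1 (0.51, adjusted p = 0.493) and H2-Q2 (1.62, adjusted p = 0.0622) did not pass. The H2-Q genes are near copies, and 12.0% of the 100-base windows of H2-Q7 occur in transcripts of other genes, led by H2-Q10. Reads may thus be split among them. For H2-Q4 the share was 14.1%, but most of it, 11.8% of the windows, was shared with Gm11131. That antisense gene covers 19.1% of the exon bases of H2-Q4, and strand use in the counting is not given. For windows of 50 bases the shares were 36.4% for H2-Q4 and 26.5% for H2-Q7. Of the counts of H2-K1, H2-D1 and the H2-Q genes, the H2-Q genes took 24.1% and 23.3% in WT and 28.0% and 32.4% in Pim3-/- libraries.

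The 3 genes called lower were H2-T22, H2-M5 and Cd1d1. H2-T22, a T-region gene whose product is seen by gamma delta T cells, had 300 and 331 counts in WT against 166 and 137 in Pim3-/- libraries (log2 fold change -1.39, adjusted p = 0.0065). H2-M5 fell by 0.83 and Cd1d1, whose product presents lipids and which lies on chromosome 3, fell by 1.16, and both calls were lost with library totals (-0.38, adjusted p = 0.176, and -0.71, adjusted p = 0.0591). H2-T23, the Qa-1 gene, had few counts and did not pass (1.29, adjusted p = 0.128).

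Peptide loading factors of the endoplasmic reticulum other than tapasin were 9, all tested, of which 1 was called in each direction, with a median log2 fold change of -0.14. Uggt1, which tests the folding of glycoproteins, rose by 0.59, and the chaperone Hspa5 fell by 0.91 on the log2 scale. Uggt1 missed the threshold with no filter (0.55, adjusted p = 0.0598) and Hspa5 with library totals (-0.46, adjusted p = 0.143). The chaperones of the loading complex did not pass: Calr was at -0.23, Canx at -0.14 and Pdia3 at -0.40, and all turned above 0 with library totals. Like B2m and Tapbp, Calr, Canx and Pdia3 were lowest in Pim3-/- replicate 1, with 589, 289 and 110 CPM there.

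The inducible proteasome replaces the catalytic subunits of the constitutive one and is known for peptides that suit class I. Psmb10 had 1989 and 1717 counts in WT against 689 and 271 in Pim3-/- libraries (log2 fold change -2.30, adjusted p = 0.0070). It was at -3.09 without Pim3-/- replicate 1 and at -1.80 without replicate 2, and not called without WT replicate 1 (-2.05, adjusted p = 0.0808). The activator subunits Psme1 and Psme2 fell by 1.30 and 1.56. So 3 of the 4 tested genes of this list were called lower. The call of Psme1 was lost without WT replicate 1 (-1.19) and without WT replicate 2 (-1.39), and that of Psme2 without WT replicate 1 (-1.36). Psmb9 had 50 and 39 counts in WT against 150 and 37 in Pim3-/- libraries, high in replicate 1 alone (log2 fold change 0.71, adjusted p = 0.389), and -0.58 without that library. Psmb8 had 0 and 0 counts in WT against 1 and 1 in Pim3-/- libraries, all within the 3 counts that a count of 0 allows.

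The constitutive subunits that the inducible ones replace, Psmb5, Psmb6 and Psmb7, fell as well, by 1.47, 1.20 and 1.38. All 3 were called lower, though these calls did not hold when either WT library was left out. Their log2 fold changes were then -1.38, -1.09 and -1.23 without WT replicate 1, and -1.54, -1.31 and -1.51 without WT replicate 2. Psmb10 fell beyond its counterpart Psmb7: the log2 ratio of Psmb10 to Psmb7 per kb was -1.41 and -1.62 in WT and -2.05 and -3.09 in Pim3-/- libraries. The called genes of the proteasome therefore went the other way from H2-K1, H2-D1 and Tap1. Psmb9, which was not called, rose relative to its counterpart Psmb6. Their log2 ratio per kb was -8.23 and -8.65 in WT and -6.08 and -7.50 in Pim3-/- libraries, at 37 to 150 counts of Psmb9. The inducible subunits thus did not move as 1 relative to the constitutive ones. Of the peptidases of the cytosol that trim or destroy peptides 6 were tested and 2 (33.3%) were called lower, Lap3 (-0.70) and Blmh (-0.56), both named after their values were seen. These calls were lost with library totals (-0.25 and -0.11), with a minimum of 10 counts in every library (adjusted p = 0.0501 and 0.0597) and without either WT library.

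**Figure D4:**
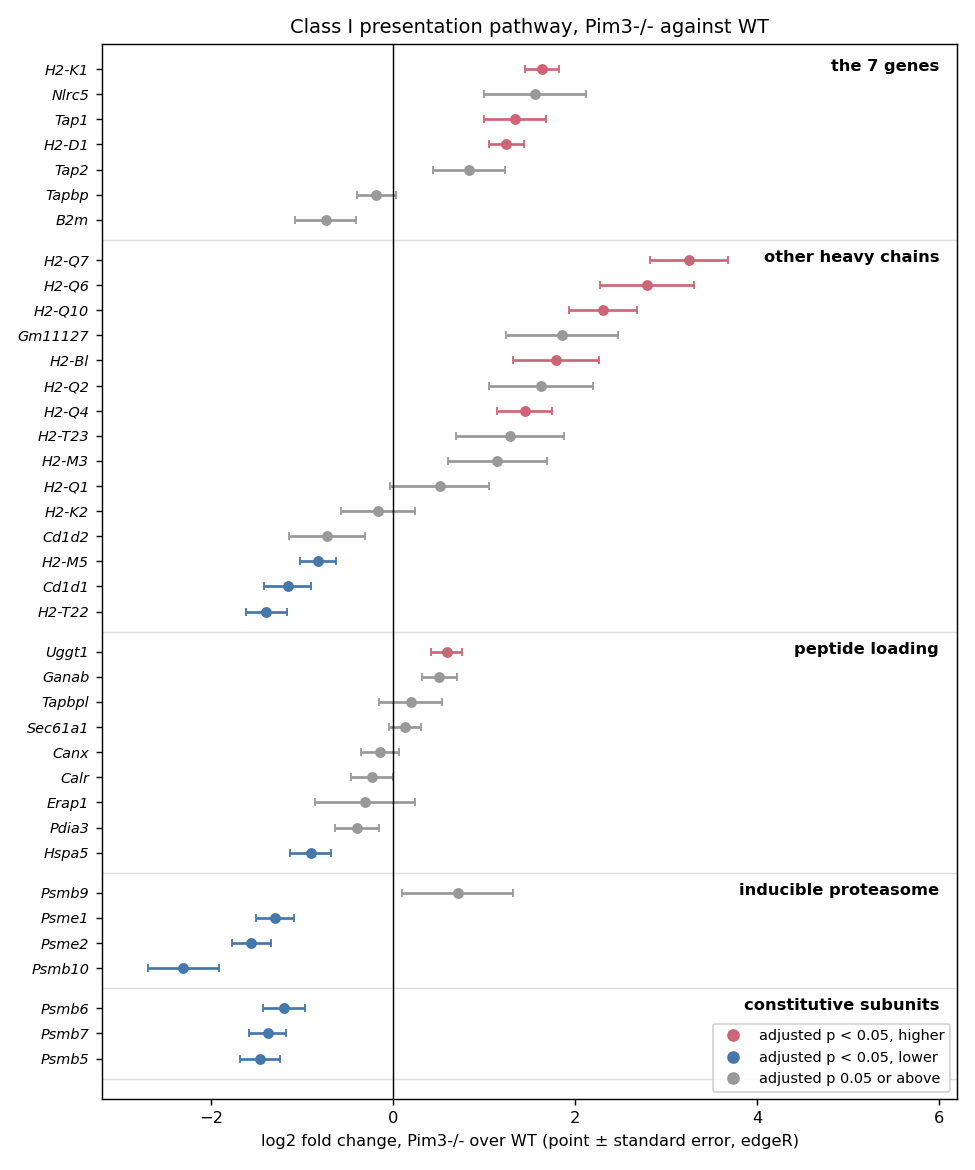
Points give the log2 fold change of Pim3-/- over WT (horizontal axis, edgeR) and bars the standard error for the 7 genes and 4 lists of the pathway, coloured by the call at an adjusted p of 0.05. H2-K1, H2-D1, Tap1 and several H2-Q genes lie to the right, up to 3.25 for H2-Q7, and the proteasome genes other than Psmb9 lie to the left, down to -2.30 for Psmb10.

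Regulators of class I genes were 23, of which 22 were tested, 2 (9.09%) were called higher and 2 (9.09%) lower, both below the background, and the median log2 fold change was -0.20. Without either WT library none was called. Ifngr1, a chain of the interferon gamma receptor, had 109 and 132 counts in WT against 307 and 333 in Pim3-/- libraries (log2 fold change 1.08, adjusted p = 0.0133), whereas Ifngr2, the other chain, did not pass at -0.69. The RFX and NF-Y factors bind the X and Y boxes together with NLRC5. Of these Rfxap rose by 0.56, Rfxank fell by 1.11 and Nfyc fell by 0.84, and Rfx5 did not pass at 0.47. The call of Rfxap held in 4 of 10 alternatives and was lost, for instance, with DESeq2 size factors (0.52, adjusted p = 0.0568), and that of Nfyc was lost with library totals (-0.38, adjusted p = 0.136). The interferon factor Irf1, which binds ISRE, did not pass at -0.15 and turned above 0, to 0.30, with library totals.

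Of 29 interferon-stimulated genes outside the pathway 15 were tested, with a median log2 fold change of -0.18. The 2 called higher (13.3%, background 17.6%) were Oasl1 (1.66) and Mx1 (2.77), and the 3 called lower (20.0%, background 16.2%) were Oas1a (-2.39), Bst2 (-0.97) and Ddx58 (-2.13). All were named after their values were seen. Mx1 had only 1 and 4 counts in WT against 16 and 28 in Pim3-/- libraries. The DESeq2 Wald test called 1 gene of the list higher, and so did a minimum of 10 counts in every library. Neither higher call held when a WT library was left out. Isg15 had 3, 0, 0 and 4 counts and Ifit1 0, 0, 1 and 0 counts in the order WT 1, WT 2, Pim3-/- 1 and Pim3-/- 2. Of the 14 genes not tested, none had over 18 counts in a library.

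Class II genes flank Tap1 and Tap2 on chromosome 17 and were listed for that reason. H2-Ab1, the class II beta chain and the nearest counted protein-coding gene above Tap2 in coordinates, had 6 and 6 counts in WT against 388 and 377 in Pim3-/- libraries. That is 0.313 and 0.265 CPM against 14.5 and 14.6 CPM, or 5.64 as a log2 fold change (SE 0.33, adjusted p = 0.000808). Its partner, the alpha chain H2-Aa, had only 2 and 1 counts against 8 and 6 and was not tested, and Ciita, the class II activator, had 2, 3, 3 and 10 counts. Of 10 class II genes 6 were tested and 2 were called higher, the other being H2-DMa (0.81), named after its values were seen.

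In position, 5 of the 7 genes lie within 1.35 Mb of chromosome 17 from Tapbp to H2-D1. Of the 80 other tested genes in that interval that are in none of the lists, 7 (8.75%) were called higher and 17 (21.2%) lower, with a median log2 fold change of -0.19. The neighbours of H2-K1 were Vps52, called lower (-0.66), and Ring1 (-0.15, adjusted p = 0.688), and those of H2-D1 were Ddx39b, called lower (-0.93), and H2-Q1, which did not pass (0.51). Beside Tapbp, Daxx (-0.38) and Rgl2 (-0.24) did not pass.

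B2m lies within the span of Patl2, a gene on the minus strand of chromosome 2 at 122120108 to 122186189, and their exons do not overlap. Patl2, looked at after the values of B2m were seen, had 644 and 729 counts in WT against 144 and 951 in Pim3-/- libraries. Like B2m it was low in Pim3-/- replicate 1, with a log2 of replicate 1 over replicate 2 of -2.77 beside -1.17 for B2m. The median size of that difference, in CPM plus 1, was 0.271 over the 9421 genes above 10 CPM in WT. Spg11, the next gene at lower coordinates, was at 39.1 and 43.4 CPM in the Pim3-/- libraries. Trim69, the next at higher coordinates, was at 0.937 and 1.55 CPM there, from 25 and 40 counts. Over the other tested genes within 200 kb of B2m, the log2 of replicate 1 over replicate 2 ran from -1.22 (Duox1) to 1.45 (Duox2). These 2 genes were named after their values were seen.

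Lists of markers of other cells are to be read against the same background, 17.6% of all tested genes called higher and 16.2% called lower. Of 10 markers of primitive endoderm 9 were tested and 8 (88.9%) were called higher, with a median log2 fold change of 3.16. Their summed level was 401 to 412 CPM in WT and 545 to 572 CPM in Pim3-/- libraries. Most of the WT sum was Sparc, at 359 and 358 CPM in WT against 276 and 314 CPM in Pim3-/- libraries. Sparc was the tested marker that was not called (-0.28), so the sum shows little of the rise of the others. Of 10 trophoblast markers 7 were tested and 3 (42.9%) were called higher, with overlapping sums of 142 to 144 CPM against 129 to 151 CPM. Of 10 fibroblast markers 3 were tested and 1 (33.3%), Pdgfrb, was called higher, with sums of 27.7 to 28.2 CPM against 45.0 to 49.1 CPM. Of 10 leukocyte markers 5 were tested and none was called in either direction by edgeR or by DESeq2, while 2 were higher at an unadjusted p below 0.05, with sums of 104 to 106 CPM against 83.7 to 139 CPM. The summed ESC markers were at 9632 to 10634 CPM in WT and 6811 to 6998 CPM in Pim3-/- libraries. Of these 10 markers 1 (10.0%), Klf4, was called higher and 3 (30.0%) lower. Fitted changes were above 0 for 5 of them, with a median log2 fold change of -0.04. Those called lower were Dppa5a (mean 3966 CPM in WT and 2030 in Pim3-/-), Pou5f1 (2247 and 1030) and Nanog (939 and 504). The study reported otherwise for these cells: upregulated Nanog by qPCR and western blot, and undisrupted expression of Oct4, the product of Pou5f1. Why these counts differ from those assays was not tested. The part of other cell types in the levels of H2-K1, H2-D1, Tap1 and H2-Ab1 was not tested.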

How the data were processed

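mRNA libraries of 2 WT cultures and 2 Pim3-/- clones were sequenced. The authors deposited raw counts per gene, not normalized. The submitters' processing notes name Trim Galore, STAR, featureCounts and GRCm38, whereas the methods of the study name Cutadapt, Hisat2, mm10 and Ensembl genes. Versions, strand use and the treatment of multi-mapped reads are not given in the sources used here. A second table, of transposable elements, was not used, and 0 columns of gene counts were left out. The table pairs no identifiers with its symbols, and all 55418 symbols were found in GENCODE M21 (GRCm38), from which positions and exon lengths were taken.

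Of the 31418 genes with any count, 18444 passed filterByExpr (edgeR 4.0.16, minimum count 10, minimum total 15). TMM factors scaled the counts, and Pim3-/- was compared with WT by the quasi-likelihood test of edgeR, at a threshold of 0.05 after Benjamini-Hochberg adjustment over all tested genes. The method was run on simulated counts in which few genes changed, in both directions alike. The simulation differs in this from the present data, so it does not bear on the scaling or on the calls given here. The p-values of edgeR set the difference between the groups against a spread pooled over both groups and drawn in part from all tested genes. That spread joins 2 WT cultures with 2 Pim3-/- clones. CPM carry errors as SD of 2 libraries. Ratios within a library and levels per kb had no such test. Programs ran in R 4.3.3 and Python 3.11.15.

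The 7 genes and the lists were chosen with earlier results of these data known. Genes named are the 7, genes of the heavy chain, loading, proteasome and regulator lists that passed the threshold or are at the ends of a list, the 2 nearest profiles of each gene and the adjacent protein-coding genes. Outside this rule and chosen after their values were seen are H2-Q1, H2-Q2, H2-T23, Calr, Canx, Pdia3, Psmb8, Rfx5, Ifngr2, Irf1, Isg15, Ifit1, H2-Aa, Ciita, the cell markers and those so marked in the text. Alternatives were DESeq2 1.42.0 size factors, library totals, no filter, a minimum of 10 counts in every library, the DESeq2 Wald test, a replicate block, the longest transcript as length and the omission of each library.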

Additional observations from a re-analysis of the deposited data

How the results depend on the processing

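Of 69 alternative values for the log2 fold changes of the 7 genes, 54 kept direction and side of the threshold, 6 fell below it, 7 rose past it and 2 turned, both of Tapbp (0.26 with library totals and 0.0388 without Pim3-/- replicate 1). Library totals called 5 of the 7 genes higher, 6606 of all genes higher and 1092 lower, and 25 genes of the pathway lists higher and 10 lower, where TMM scaling called 3, 3246, 2987, 12 and 17. They shift all genes by 0.45, and with them Irf1 turned to 0.30, Calr to 0.22, Canx to 0.31 and Pdia3 to 0.0580. With 1 library left out, 0 to 4 of the 7 genes were called higher and 0 to 2 lower, 25 to 5383 of all genes higher and 5 to 5139 lower, and 1 to 21 genes of the pathway lists higher and 1 to 31 lower. Without WT replicate 1 or 2 none of the 7 was called, and without Pim3-/- replicate 2 B2m (-1.44) and Tapbp (-0.45) were called lower and Nlrc5 (2.00) higher. Without Pim3-/- replicate 1 Tap2 was called higher (0.91), and Psmb9 turned to -0.58, Calr to 0.000185, Canx to 0.0441 and Patl2 to 0.17, where the other extremes, without Pim3-/- replicate 2, were 1.39, -0.50, -0.36 and -2.61. The lone library of a group was then taken to vary like the other group. The pooled estimate of the spread was unlimited in its degrees of freedom when a Pim3-/- library was left out, so that counts of calls do not compare between these fits. WT cultures and clones share only a number: the deviations of libraries with the same number correlated at 0.0391 across genes. With a replicate block 1 of the 7 genes was called lower, B2m (-0.85, adjusted p = 0.0275 from edgeR), and 3 were called higher. Nlrc5 could not be fitted with a minimum of 10 counts in every library, which it does not reach. At 8 to 59 counts for Nlrc5 and 24 to 86 for Tap2, depth limits the precision of both.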
